A study of Mus musculus with 2 samples.

Results

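Cholesterol is the substrate of every steroid hormone, and 32 genes that make it, take it up, move it and store or export it were followed across all cell types of the fetal mouse testis. The members were picked by gene symbol from a list of the pathway, with earlier results of these data known, and all 32 are among the 32285 genes of the deposited table. They comprise 18 synthesis genes (7 mevalonate steps, 3 steps from squalene to lanosterol and 8 steps from lanosterol to cholesterol), 5 regulators of the pathway, 5 genes of uptake and intracellular transport, and 4 genes of storage and efflux. Nuclei came from whole testes of E14.5 embryos that carried *Nr5a1-cre* and *Rosa-tdTomato*, a reporter that the Cre switches on in *Nr5a1*-expressing cells. All nuclei shared this genotype and stage, and how many embryos were pooled is not stated. The 10x multiome assay gave 1 RNA library and 1 ATAC library (transposase cuts in open chromatin) of the same nuclei. With 1 library per assay there is no replicate and no test of a difference. Ratios and levels are given with exact 95% intervals, which cover counting error only.

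Fetal Leydig cells make androgens from cholesterol, which a cell can synthesise from acetyl-CoA or take from lipoproteins. The mevalonate steps build isoprene units, these are joined into squalene, squalene is closed into lanosterol, and lanosterol is trimmed and reduced to cholesterol. The SREBP transcription factors, held in the endoplasmic reticulum by INSIG proteins through their escort SCAP while sterols are plentiful, switch on most of these genes when sterols fall. Cells that hold more cholesterol than they use esterify it for lipid droplets or export it through ABC transporters.

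The 7198 nuclei kept had a median of 7948 RNA molecules (UMIs) and 4477 ATAC fragments. They were grouped into 12 clusters without using the 32 genes or the peaks near them, and 11 clusters took the name of the cell type whose markers they carried. These were Leydig-like (740 nuclei), progenitor-like (2323), Sertoli-like (835), supporting-like (86), germ-like (974), surface epithelium-like (566), mesonephric mesenchyme-like (394), pericyte-like (68), endothelial-like (96), immune-like (68) and erythroid-like (44). A cluster of 1004 nuclei, led by cell cycle genes and *Acta2*, stayed unnamed and is left out of the ranges over named classes. None of the 12 clusters took the contractile name, but at a finer resolution a contractile-like cluster of 1091 nuclei appeared. The progenitor-like class can therefore include contractile-like nuclei, and its levels can be those of a mixture. Leydig-like nuclei carried their markers: *Cyp11a1*, the enzyme that cleaves the cholesterol side chain, reached 1237 CPM (UMIs of the gene in 1000000 UMIs of the class) there against 55.7 in all other nuclei, and *Hsd3b1* 1044 against 48.3.

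The start regions of 6 members are shown because the results turn on them. *Hmgcs1* holds the SREBP motif, *Lss* had the largest RNA ratio of the synthesis genes, *Tm7sf2* the largest promoter ratio, *Dhcr7* holds an SF-1 motif, *Insig1* is the regulator with more open chromatin in Leydig-like nuclei, and *Abca1* was high in 2 classes with promoter ratios near 1 in both. Each line is 300 bases, 5′ to 3′ along the gene, from RefSeq on GRCm38.p6, and runs from 250 bases before the RefSeq start to 50 after it. Capitals mark matches, on either strand, to the sterol response element TCACNCCAC, the CCAAT box (bound by NF-Y), the E-box CACGTG and the SF-1 site CAAGGTCA, and the marked matches do not overlap.
Hmgcs1 promoter, chr13:119690101-119690400, plus strand: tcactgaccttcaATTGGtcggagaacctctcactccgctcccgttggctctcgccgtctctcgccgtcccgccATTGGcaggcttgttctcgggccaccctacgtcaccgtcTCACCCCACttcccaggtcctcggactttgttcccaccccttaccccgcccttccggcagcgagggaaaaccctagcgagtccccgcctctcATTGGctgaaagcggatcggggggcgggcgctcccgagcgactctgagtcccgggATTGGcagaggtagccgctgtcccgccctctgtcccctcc
Lss promoter, chr10:76531355-76531654, plus strand: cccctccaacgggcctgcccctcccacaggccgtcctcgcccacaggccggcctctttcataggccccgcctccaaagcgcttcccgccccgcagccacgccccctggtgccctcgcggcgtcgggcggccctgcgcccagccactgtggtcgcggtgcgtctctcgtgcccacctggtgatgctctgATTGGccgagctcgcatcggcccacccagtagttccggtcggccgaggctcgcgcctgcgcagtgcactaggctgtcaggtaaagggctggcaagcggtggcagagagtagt
Tm7sf2 promoter, chr19:6067801-6068100, minus strand: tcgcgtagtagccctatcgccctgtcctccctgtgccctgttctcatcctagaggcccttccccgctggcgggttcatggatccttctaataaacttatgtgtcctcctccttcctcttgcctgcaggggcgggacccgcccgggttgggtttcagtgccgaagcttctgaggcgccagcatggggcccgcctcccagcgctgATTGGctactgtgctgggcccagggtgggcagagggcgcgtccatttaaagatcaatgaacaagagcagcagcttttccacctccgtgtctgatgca
Dhcr7 promoter, chr7:143822917-143823216, plus strand, 1 of 3 RefSeq windows of the gene: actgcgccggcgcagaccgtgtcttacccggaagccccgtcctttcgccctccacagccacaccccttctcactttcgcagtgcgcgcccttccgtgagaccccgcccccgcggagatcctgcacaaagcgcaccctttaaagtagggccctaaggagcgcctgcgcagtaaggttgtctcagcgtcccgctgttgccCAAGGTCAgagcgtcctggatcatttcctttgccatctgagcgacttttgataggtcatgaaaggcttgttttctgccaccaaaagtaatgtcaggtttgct
Insig1 promoter, chr5:28071162-28071461, plus strand: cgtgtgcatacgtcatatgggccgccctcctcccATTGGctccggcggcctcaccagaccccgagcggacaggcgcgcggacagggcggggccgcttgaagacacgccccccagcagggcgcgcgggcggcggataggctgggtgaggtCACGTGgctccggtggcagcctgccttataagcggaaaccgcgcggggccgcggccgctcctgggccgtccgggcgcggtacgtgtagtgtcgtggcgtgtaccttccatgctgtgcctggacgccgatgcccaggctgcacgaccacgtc
Abca1 promoter, chr4:53159846-53160145, minus strand: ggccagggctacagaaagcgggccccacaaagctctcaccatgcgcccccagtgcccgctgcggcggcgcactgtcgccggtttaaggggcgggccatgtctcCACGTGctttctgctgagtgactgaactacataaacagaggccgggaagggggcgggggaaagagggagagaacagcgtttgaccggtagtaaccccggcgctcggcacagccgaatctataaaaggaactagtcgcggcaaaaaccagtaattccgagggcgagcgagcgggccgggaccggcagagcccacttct

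The RefSeq table held windows for 25 of the 32 members, not matching *Fdps*, *Fdft1*, *Sqle*, *Scarb1*, *Npc1*, *Stard4* and *Abcg1*. A CCAAT box was present in 21 of the 25 (84%), against 42.04% of the 13786 genes with a RefSeq window and an open promoter in these nuclei and 37.4% of all 32851 windows. Among the matched synthesis genes 14 of 15 held it, *Acat2* being the exception. The GC box GGGCGG, searched on both strands and not capitalised above, was present in 23 of 25 (92%), against 62.8% of genes with an open promoter and 35.7% of all windows. *Hmgcs1* alone matched the sterol response element (1.47% of genes with an open promoter, 1.24% of all windows), and *Dhcr7* alone the SF-1 site (1.49% and 1.56%). A gene was counted when any of its RefSeq windows held the motif, and the CCAAT box and E-box of *Dhcr7* lie in windows other than the one shown. The E-box was present in *Hsd17b7*, *Sc5d*, *Dhcr7*, *Scap*, *Insig1* and *Abca1* (24% of the 25), against 10.95% of genes with an open promoter and 7.15% of all windows. In the lines above *Hmgcs1* carries 4 CCAAT boxes around its sterol response element, *Insig1* has a CCAAT box and an E-box, and *Abca1* an E-box and no CCAAT box. A match describes these letters and is not a binding site, and no match says only that the letters are not in this window.

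All 18 synthesis genes had their highest level in Leydig-like nuclei. Their summed RNA was 4139.6 CPM in Leydig-like nuclei (4096 to 4184), 669.6 in progenitor-like, 563 in germ-like and 506 in Sertoli-like nuclei, and spanned 445 to 860.3 over the other named classes, with immune-like nuclei lowest and erythroid-like nuclei highest. The interval of no other class overlapped that of Leydig-like nuclei. Against all other nuclei together the ratio was 7.15 (7.05 to 7.26). All 18 genes were at least 2-fold higher in Leydig-like nuclei, as were 25 of the 32 members, a call that 7.53% of the 15216 genes with at least 100 UMIs received. The median ratio was 8.14-fold over the synthesis genes and 0.864-fold over all those genes. For 17 of the 18 the interval of Leydig-like over the next named class lay above 1, the exception being *Ebp*. How many of all genes were highest in Leydig-like nuclei, or clear of the next class, was not counted.

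**Figure D1:**
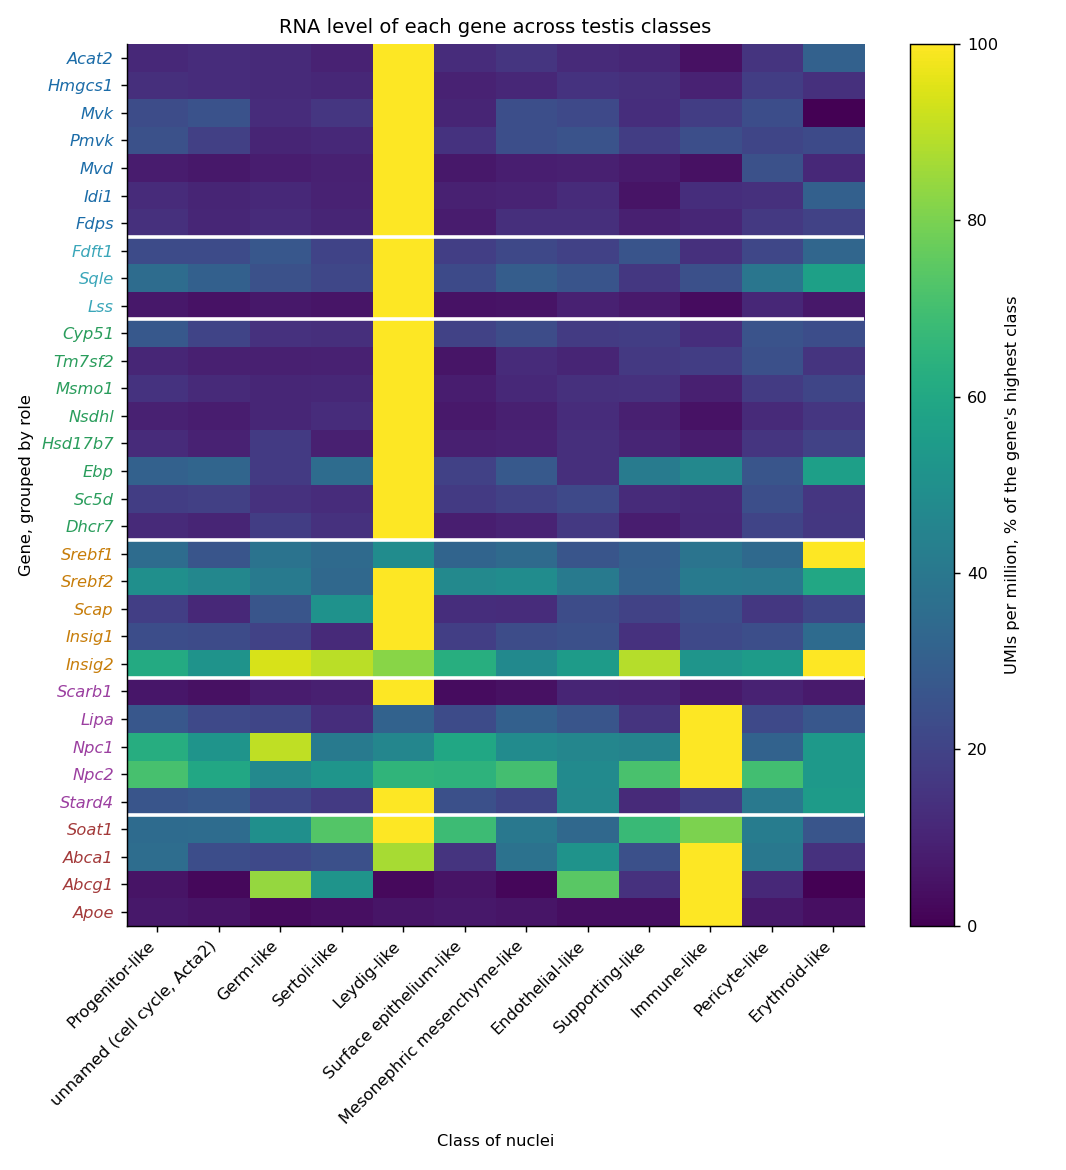
RNA level (CPM) of each of the 32 genes in the 12 classes of nuclei, as a percent of the gene's highest class, with genes in rows grouped by role and classes in columns. The 18 synthesis genes in the top 3 blocks all peak in the Leydig-like column, while *Lipa*, *Npc1*, *Npc2*, *Abca1*, *Abcg1* and *Apoe* peak in the immune-like column.

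The 7 mevalonate genes summed to 1596 CPM in Leydig-like nuclei and to 152 to 287 in the other named classes. *Mvd*, which makes the first isoprene unit by decarboxylation, differed most in this group. Its level was 64.2 in Leydig-like nuclei, 15.8 in pericyte-like nuclei and 2.93 to 7.42 in the other named classes, a ratio of 12.6 (10.98 to 14.45) to all other nuclei. *Mvk*, the first of the kinases, differed least, at 48.6 in Leydig-like nuclei and 11.6 in mesonephric mesenchyme-like nuclei, the next named class, and with 0 UMIs in erythroid-like nuclei, where the limit of 3 counts is 7.42 CPM and the exact upper bound 9.12 CPM. Its ratio was 5.60 (4.92 to 6.37).

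*Hmgcs1*, which condenses acetoacetyl-CoA with acetyl-CoA at the entry of the pathway, stood at 839 CPM in Leydig-like nuclei and 79.6 to 153 in the other named classes, a ratio of 8.24 (7.97 to 8.52). *Acat2*, the cytosolic thiolase ahead of it, had a ratio of 8.40 (7.73 to 9.14), with 136 in Leydig-like and 42.02 in erythroid-like nuclei, the next class. Its paralogue *Acat3* had 63 UMIs in all nuclei, and whether both genes share reads is not known here. *Pmvk*, the second kinase, had a ratio of 5.99, *Idi1*, the isomerase of the isoprene unit, 9.04, and *Fdps*, which joins the units to farnesyl diphosphate, 8.43.

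The 3 genes from squalene to lanosterol spanned the whole range of the synthesis genes. *Lss*, which closes the rings to give lanosterol (chr10:76531588-76557138 of GRCm38, plus strand), had the largest ratio of the 18. It stood at 262 CPM in Leydig-like nuclei, 28.8 in pericyte-like nuclei, 23.97 in endothelial-like nuclei and 8.78 to 19.1 in the other named classes, a ratio of 16.5 (15.3 to 17.7). *Sqle*, the epoxidase directly before it, had the smallest ratio, 3.61 (3.39 to 3.85), with 161 in Leydig-like nuclei, 91.5 in erythroid-like nuclei and 26.4 to 63.3 in the others. These consecutive steps differed in how far Leydig-like nuclei stood apart, and the intervals of their ratios did not overlap. *Fdft1*, squalene synthase, had a ratio of 4.29 (4.09 to 4.51), with 299 in Leydig-like and 98.9 in erythroid-like nuclei. Its gene model overlaps *Ctsb* on the opposite strand. Cell Ranger ARC was run at its default settings, which count reads in the sense of a gene.

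The 8 genes from lanosterol to cholesterol summed to 1822 CPM in Leydig-like nuclei and to 192 to 366 in the other named classes. *Tm7sf2*, a sterol reductase, had the largest ratio of the group, 10.4 (9.13 to 11.8), with 65.0 in Leydig-like nuclei and 3.75 to 15.8 in the others. Its model overlaps *Vps51* on the same strand, which leaves its level uncertain. The models of *Fdps*, *Srebf1*, *Srebf2*, *Scarb1* and *Abcg1* also overlap others on the same strand, and their levels carry the same limit. *Nsdhl*, which removes methyl groups from the sterol ring, followed at 10.1 (9.47 to 10.7), with 264 against 13.2 to 42.02. *Ebp*, the sterol isomerase, had the smallest ratio of the group, 3.79 (3.16 to 4.53), at 21.9 in Leydig-like nuclei, 12.4 in erythroid-like nuclei and 2.996 to 10.2 in the others. With 580 UMIs in all nuclei it was also the member with the fewest counts, and Leydig-like over erythroid-like nuclei was 1.78 (0.747 to 5.53), so that both classes were not told apart. The remaining ratios were 8.35 for *Msmo1*, the sterol oxidase, 8.03 for *Hsd17b7*, a ketoreductase, 7.27 for *Dhcr7*, a reductase of the last steps, 6.15 for *Sc5d*, the desaturase, and 5.26 for *Cyp51*, the lanosterol demethylase, whose model overlaps *Akap9* on the opposite strand.

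**Figure D2:**
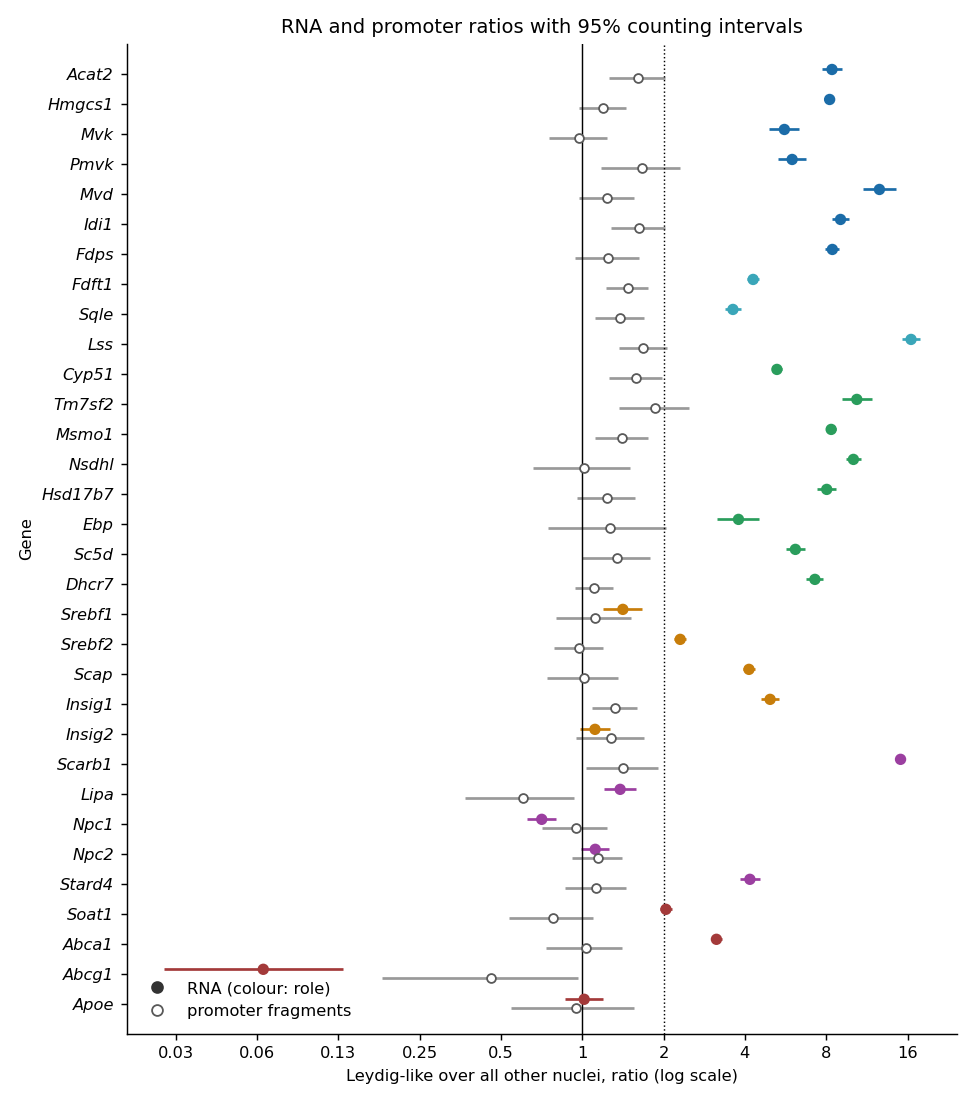
Ratio of Leydig-like nuclei to all other nuclei for each gene on a log scale, with exact 95% counting intervals. RNA is shown beside ATAC fragments at peaks within 1 kb of the deposited start positions of the gene. RNA ratios of the 18 synthesis genes lie between 3.61 and 16.5, while the promoter ratios of the 32 genes lie between 0.459 and 1.86.

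Levels outside Leydig-like nuclei have to be read beside the free RNA of the preparation. *Cyp17a1*, *Cyp11a1* and *Hsd3b1*, steroid enzymes of Leydig cells, stood in progenitor-like nuclei at 12.6%, 4.05% and 4.43% of their Leydig-like levels. The synthesis genes stood there at 6.36% (*Lss*) to 35.2% (*Sqle*), with a median of 13.7%, and 10 of the 18 were above all 3 steroid enzymes. In Sertoli-like nuclei 14 of 18 were above all of them, and in germ-like nuclei 16 of 18. The share of all genes above these enzymes was not counted. It is not small, since the median Leydig-like ratio was 0.864-fold over all genes with at least 100 UMIs. These counts therefore do not tell expression from free RNA. *Lss* and *Mvd* stood below *Cyp17a1* in each of these classes: in progenitor-like, Sertoli-like and germ-like nuclei *Lss* was at 6.36%, 5.59% and 6.60% of its Leydig-like level and *Mvd* at 7.78%, 9.23% and 7.82%. The lowest of the 3 enzymes stood at 4.05%, 4.44% and 5.18% in these classes, so neither gene was below all of them. *Lss* came next in pericyte-like and endothelial-like nuclei, at 10.98% and 9.15% of its Leydig-like level. The 3 steroid enzymes stood at 11.2% to 18.3% in pericyte-like nuclei. In endothelial-like nuclei they stood at 8.75% to 11.4%, with *Cyp17a1* below its 12.6% in progenitor-like nuclei. The part of free RNA in these low levels was not tested gene by gene. With an estimate of it subtracted the Leydig-like ratio of the summed synthesis RNA was 16.3 in place of 7.15. The estimate took the profile of all deposited barcodes as free RNA, Leydig-like nuclei included. Such a subtraction raises the ratio of any gene far higher in Leydig-like nuclei than elsewhere, so 16.3 is not a corrected ratio. That estimate is unsure, since it took 89.2% of germ-like RNA, as the mean of 37.2% and an impossible 141%, and left germ-like nuclei at 0 CPM of synthesis RNA, so ratios of single genes after subtraction are not given.

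**Figure D3:**
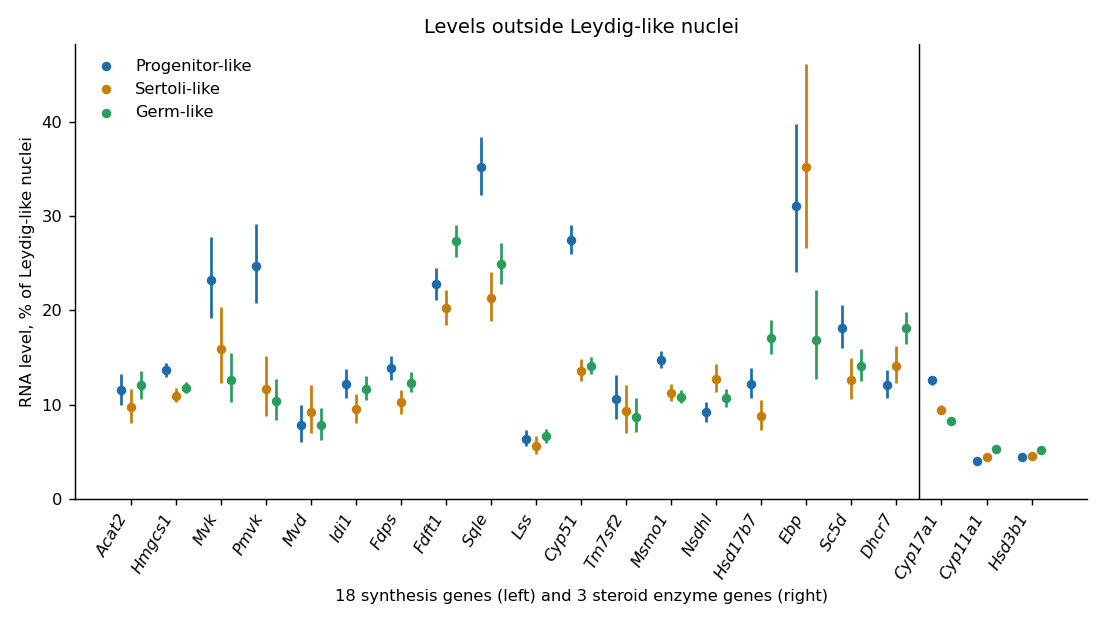
Level of the 18 synthesis genes and of *Cyp17a1*, *Cyp11a1* and *Hsd3b1* in progenitor-like, Sertoli-like and germ-like nuclei, as a percent of the level in Leydig-like nuclei, with exact 95% counting intervals. *Sqle*, *Ebp* and *Cyp51* stand above the 3 steroid enzymes in progenitor-like nuclei, at 35.2%, 31.1% and 27.5%. *Lss* at 6.36% lies below *Cyp17a1* at 12.6% and above *Cyp11a1* and *Hsd3b1*.

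Synthesis RNA varied among Leydig-like nuclei themselves. After each nucleus was thinned to 2000 UMIs, 737 Leydig-like nuclei had a median of 8 UMIs of the 18 genes, with quartiles of 4 and 12 and a range of 0 to 27. The median was 1 in every other class except immune-like nuclei, where it was 0. At least 1 such UMI was present in 97.2% of Leydig-like nuclei and in 49.2% (immune-like) to 79.5% (erythroid-like) of nuclei in the other classes. Thinning left out 0 to 50 nuclei per class that were too shallow. The variance of this sum over its mean was 3.17 in Leydig-like nuclei and 1.14 to 2.22 in the other classes, where independent counts would give 1. The counting intervals do not cover this spread among nuclei.

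**Figure D4:**
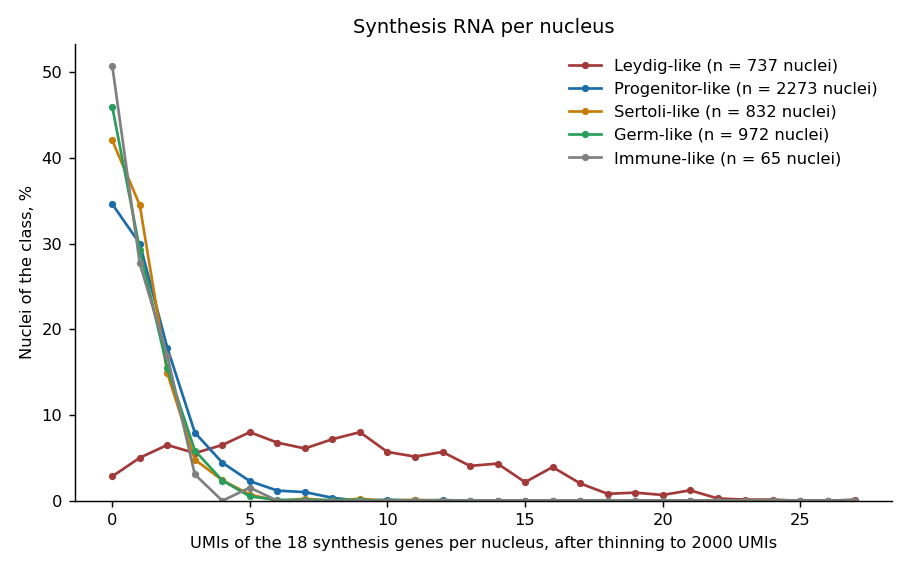
Share of nuclei (percent of the class) by the number of UMIs of the 18 synthesis genes after thinning each nucleus to 2000 UMIs. Leydig-like nuclei spread from 0 to 27 with a median of 8, and the 4 other classes shown pile up at the lowest counts.

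Nuclei that resembled doublets had less synthesis RNA. Of the 740 Leydig-like nuclei, 143 (19.3%) had a score above the automatic threshold of Scrublet, a caller of droplets that hold more than 1 nucleus, and were kept. Their synthesis RNA summed to 3159 CPM (3092 to 3226), against 4619 (4563 to 4676) in the other 597. *Cyp11a1* moved the same way, at 844 and 1429 CPM, as did *Scarb1*, at 916 and 1462. The part of doublets in this spread was not tested.

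A *Hmgcs1* UMI was present in 69.6% of thinned Leydig-like nuclei (66.1 to 72.9) and in 10.8% to 20.6% of nuclei of the other classes. Without thinning the share was 93.2% in Leydig-like and 39.3% in progenitor-like nuclei. *Cyp17a1* left a UMI in 21.5% to 38.5% of thinned nuclei outside the Leydig-like class. Such shares also depend on how abundant each gene is, so they cannot tell expression from free RNA. The part of free RNA in the *Hmgcs1* share there was not tested.

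Finer clusters, made without regard to the 12 classes, also differed in synthesis RNA, while the Leydig-like nuclei stayed 1 cluster. They need not lie within 1 class, and 3 of them took the names of progenitor or contractile cells. The nuclei called progenitor-like above can include part of the contractile-like cluster. The contractile-like one (1091 nuclei) had 740.4 CPM of synthesis RNA, a progenitor-like one low in the cell cycle genes *Mki67* and *Top2a* (168 CPM summed) had 648, and another high in them (1540.2), which shares leading genes such as *Lockd* and *Neil3* with the unnamed cluster, had 517. Of the Sertoli-like clusters the cycling one was the higher, with 461 at a cell cycle sum of 138 and 563 at 899. A germ-like cluster of 80 nuclei had 841, against 448 and 526 in the larger ones, and stood apart in depth with a median of 34669.5 UMIs.

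Of the 5 regulators 3, *Srebf2*, *Scap* and *Insig1*, were at least 2-fold higher in Leydig-like nuclei, as 7.53% of all genes were. *Insig1*, which retains SCAP and is itself a target of SREBP, had the largest ratio, 4.96 (4.58 to 5.37), with 120.4 CPM in Leydig-like nuclei, 42.02 in erythroid-like nuclei and 14.2 to 29.5 in the other named classes. *Insig2*, its paralogue, had a ratio of 1.12 (0.982 to 1.26), which includes 1. It stood at 34.5 (30.6 to 38.7) in Leydig-like, 39.5 (36.9 to 42.3) in germ-like, 37.7 (34.0 to 41.7) in Sertoli-like and 42.02 (24.5 to 67.3) in erythroid-like nuclei, and at 25.6 in progenitor-like nuclei. Leydig-like over germ-like nuclei was 0.873 (0.760 to 0.99968), an upper bound too near 1 to tell them apart. Over Sertoli-like nuclei it was 0.914 (0.781 to 1.07), which includes 1. The intervals of the ratios of these paralogues did not overlap.

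*Scap*, the escort of SREBP, was at 247 CPM in Leydig-like nuclei, 126 in Sertoli-like nuclei and 30.9 to 65.3 in the other named classes, a ratio of 4.14 (3.93 to 4.37). Sertoli-like nuclei were the second class, and Leydig-like over Sertoli-like was 1.97 (1.83 to 2.11). *Srebf2*, the SREBP of the cholesterol genes, was at 243 in Leydig-like, 146 in erythroid-like and 75.4 to 121 in the other named classes, a ratio of 2.31 (2.19 to 2.42). *Srebf1*, which serves fatty acid genes more, was highest in erythroid-like nuclei at 42.02 (24.5 to 67.3), from 17 UMIs, and second in Leydig-like nuclei at 20.5, with a ratio of 1.41 (1.19 to 1.67) there. It was the 1 member at least 2-fold higher in erythroid-like nuclei than elsewhere, a call that 14.4% of genes received.

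Among the genes of uptake and transport, *Scarb1*, the receptor that takes cholesterol esters from high-density lipoprotein (chr5:125277087-125341094, minus strand), stood apart. It was at 1283 CPM in Leydig-like nuclei (1258 to 1307), 134 in endothelial-like, 113 in Sertoli-like and 76.9 in progenitor-like nuclei, and spanned 43.5 to 129.99 over the other named classes. The ratio to all other nuclei was 15.1 (14.6 to 15.6) and to progenitor-like nuclei 16.7. A *Scarb1* UMI was present in 72.0% of thinned Leydig-like nuclei and in 7.14% to 21.1% of the others, below the *Cyp17a1* share in each class. Shares of both genes also depend on how abundant each is. *Stard4*, a carrier of free cholesterol, followed with a ratio of 4.18 (3.84 to 4.54), at 99.3 in Leydig-like, 54.4 in erythroid-like and 46.6 in endothelial-like nuclei.

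The 3 lysosomal members did not follow this pattern. *Lipa*, which frees cholesterol from lipoprotein esters, was at 90.7 CPM in immune-like nuclei, 28.6 in Leydig-like nuclei and 11.8 to 27.7 in the other named classes, and immune-like over all other nuclei was 4.34 (3.31 to 5.59). Its Leydig-like ratio was 1.38 (1.20 to 1.59). *Npc1*, which exports that cholesterol from the lysosome, had a Leydig-like ratio of 0.708 (0.627 to 0.798), with 77.6 in immune-like, 70.1 in germ-like, 35.5 in Leydig-like and 48.3 in progenitor-like nuclei. Its model overlaps *Rmc1* on the opposite strand. Immune-like over germ-like nuclei was 1.11 (0.824 to 1.45) for *Npc1*, which does not set both apart. *Npc2*, its soluble partner, was at 60.001 in immune-like, 39.2 in Leydig-like and 28.3 to 42.7 in the other named classes, with a Leydig-like ratio of 1.12 (0.992 to 1.26). Its immune-like level over that of supporting-like nuclei, the next class, was 1.40 (0.901 to 2.18), which includes 1.

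The 4 genes of storage and efflux each had a pattern of its own. *Soat1*, which esterifies cholesterol for storage, was at 236 CPM in Leydig-like, 189 in immune-like, 172 in Sertoli-like and 162 in surface epithelium-like nuclei and 61.8 to 159.99 in the other named classes. Its ratio of 2.04 (1.94 to 2.15) lies at the 2-fold line, and it lost this call with no doublet removal (1.96), with a stricter filter on nuclei (1.79) and with the other classes weighted equally (1.99). *Abca1*, which passes cholesterol to apolipoprotein A-I, was at 363 in immune-like and 316 in Leydig-like nuclei, followed by 187 in endothelial-like nuclei and 51.9 to 145 in the others. Immune-like over Leydig-like was 1.15 (1.01 to 1.31), and Leydig-like over all other nuclei 3.14 (3.0003 to 3.28).

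*Abcg1*, which exports cholesterol to high-density lipoprotein (chr17:31057675-31117988, plus strand), had the lowest Leydig-like ratio of the 32 members, 0.0660 (0.0284 to 0.131), or 0.155 with clusters from chromatin alone. Leydig-like nuclei held 8 UMIs, or 0.965 CPM (0.417 to 1.90), against 38.05 in immune-like, 32.02 in germ-like, 28.2 in endothelial-like and 19.7 in Sertoli-like nuclei, and 1.96 in progenitor-like nuclei. It was the 1 member at least 2-fold lower in Leydig-like nuclei, a call that 24% of genes received. The low level was not particular to this class: Leydig-like nuclei ranked 9 of the 11 named classes, and erythroid-like nuclei, the lowest, stood at 0 CPM. Finer clusters of mesonephric mesenchyme-like and surface epithelium-like nuclei stood at 0.650 and 2.01 CPM. Leydig-like and progenitor-like nuclei were not told apart, the first over the second being 0.493 (0.195 to 1.11). Among finer clusters *Abcg1* stood at 57.5 in the germ-like cluster highest in *Mki67* and *Top2a* (693 summed), against 27.2 and 17.99 in the other germ-like clusters, and at 50.6 and 8.13 in the 2 endothelial-like clusters.

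*Apoe*, the apolipoprotein that macrophages secrete with cholesterol, was at 347 CPM in immune-like nuclei (304 to 394), 20.02 in Leydig-like nuclei and 10.5 to 23.02 in the other named classes. Immune-like over all other nuclei was 20.7 (17.9 to 23.8), and Leydig-like over all others 1.02 (0.861 to 1.20), or 0.426 with the other classes weighted equally. Among the 68 immune-like nuclei, 20 (29.4%) were above the automatic doublet threshold, as were 36.5% of endothelial-like, 27.3% of erythroid-like, 23.5% of germ-like and 19.3% of Leydig-like nuclei, and the part of doublets in their levels was not tested. In this class 4 members were at least 2-fold higher than elsewhere (*Lipa*, *Abca1*, *Abcg1* and *Apoe*), none of them a synthesis gene, where 9.6% of all genes were. *Abcg1* was the 1 such member in germ-like and in endothelial-like nuclei, where 16.4% and 4.77% of genes were. No member was in progenitor-like (4.81% of genes), unnamed (3.63%), Sertoli-like (7.75%), surface epithelium-like (5.46%), mesonephric mesenchyme-like (4.46%), supporting-like (6.76%) or pericyte-like nuclei (6.01%).

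Chromatin at the gene starts differed less than RNA. All 32 members had a peak within 1 kb of the start positions deposited for the gene, 27 with 1 and 5 with 2. These peaks held 190 to 1902 fragments per gene. The peaks of *Pmvk*, *Fdft1*, *Srebf1* and *Insig2* lie over 1 kb from the start of the gene model. So does a further peak of *Dhcr7* and of *Soat1*. Over the 18 synthesis genes there were 1320.4 promoter fragments per 1000000 fragments at peaks (normalised fragments) in Leydig-like nuclei, 909 in progenitor-like, 1045 in Sertoli-like, 1104 in germ-like and 1653 in erythroid-like nuclei. Leydig-like over all other nuclei was 1.34 (1.27 to 1.42), and erythroid-like over all others 1.65 (1.39 to 1.94), intervals that overlap. Endothelial-like, supporting-like and germ-like nuclei also lay above 1, at 1.20 (1.07 to 1.34), 1.16 (1.01 to 1.32) and 1.12 (1.07 to 1.17). Leydig-like nuclei had the fewest fragments, a median of 2944 against 3597.5 to 6071.5 in the other classes.

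The interval of the Leydig-like promoter ratio lay above 1 for 11 members, 9 of them synthesis genes (*Acat2*, *Pmvk*, *Idi1*, *Fdft1*, *Sqle*, *Lss*, *Cyp51*, *Tm7sf2* and *Msmo1*) with *Insig1* and *Scarb1*, and below 1 for *Lipa* and *Abcg1*. Among the 19252 genes with at least 20 promoter fragments these calls went to 7.74% and 6.54%. These shares are not matched for counts: the members held 190 to 1902 fragments each, and an interval clears 1 more easily with more fragments. Erythroid-like nuclei, with 144 fragments at the synthesis starts, had larger ratios than Leydig-like nuclei at some of the same starts, 2.99 (1.54 to 5.25) at *Acat2*, 2.89 (1.05 to 6.37) at *Pmvk* and 2.20 (1.09 to 3.96) at *Msmo1*, and 3.14 (1.75 to 5.22) at *Hsd17b7*. Some of these calls depended on the settings: that of *Scarb1* was lost in 4 (its interval then started at 0.845 to 0.995), that of *Msmo1* with the automatic doublet threshold and with clusters from chromatin alone, that of *Insig1* with the stricter filter on nuclei, and that of *Lipa*, which was lower, with clusters from chromatin alone (0.714, 0.488 to 1.01467). No member reached 2-fold at the promoter, which 2.18% of genes did, but with the automatic doublet threshold *Tm7sf2* had a ratio of 2.17 (1.51 to 3.05) and *Pmvk* 2.02 (1.35 to 2.93). *Tm7sf2* had the largest ratio, 1.86 (1.37 to 2.49), with 48.0 normalised fragments in Leydig-like, 27.9 in progenitor-like, 21.0 in Sertoli-like and 20.1 in germ-like nuclei. At *Lss* the ratio was 1.68 (1.36 to 2.05), with 99.7, 51.5, 64.9 and 78.0 normalised fragments in the same order.

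Members with a large RNA ratio did not all have more open starts. *Hmgcs1*, whose start carries the sterol response element shown above, had a promoter ratio of 1.20 (0.974 to 1.46), *Nsdhl* 1.01 (0.656 to 1.4997) and *Scap* 1.02 (0.743 to 1.36), and these intervals include 1. That of *Hmgcs1* lay just above 1 with the automatic doublet threshold (1.29, 1.002 to 1.64), with clusters from RNA alone (1.23, 1.006 to 1.48) and with matrix cuts (1.19, 1.02 to 1.37). The last interval is too narrow because cuts come in pairs. *Scarb1*, with an RNA ratio of 15.1, had 1.42 (1.03 to 1.91). At *Lipa* the directions differed, with an RNA ratio of 1.38 (1.20 to 1.59) and a promoter ratio of 0.604 (0.370 to 0.935). At the promoter 2 steroid enzyme genes differed more than the members, with ratios of 14.3 (8.21 to 25.1) at *Cyp11a1* and 7.23 (4.70 to 10.98) at *Cyp17a1*. Both are markers that named the Leydig-like class. Unlike the members they were not held out of the clustering, so their ratios and those of the members are not on equal terms. *Hsd3b1* had under 20 promoter fragments and no ratio.

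Starts of the efflux genes followed their RNA in some classes and not in others. *Apoe* stood at 88.0 normalised fragments in immune-like nuclei, from 9 fragments, against 15.6 in all other nuclei, a ratio of 5.64 (2.55 to 10.9). *Abcg1* stood at 35.0 in germ-like nuclei against 8.70 in all others, a ratio of 4.02 (2.99 to 5.40). In the other classes where *Abcg1* RNA was high its start was not shown to be more open: the ratio was 2.23 (0.456 to 6.63) in immune-like nuclei from 3 fragments, 0.585 (0.0703 to 2.14) in endothelial-like nuclei from 2 fragments and 0.798 (0.455 to 1.32) in Sertoli-like nuclei. At *Abca1* the promoter ratio was 1.03 in Leydig-like (0.735 to 1.41) and in immune-like nuclei (0.280 to 2.65, from 4 fragments). Over all classes its start ranged from 21.3 normalised fragments in supporting-like to 62.5 in endothelial-like and 69.2 in pericyte-like nuclei, and each ratio interval included 1.

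**Figure D5:**
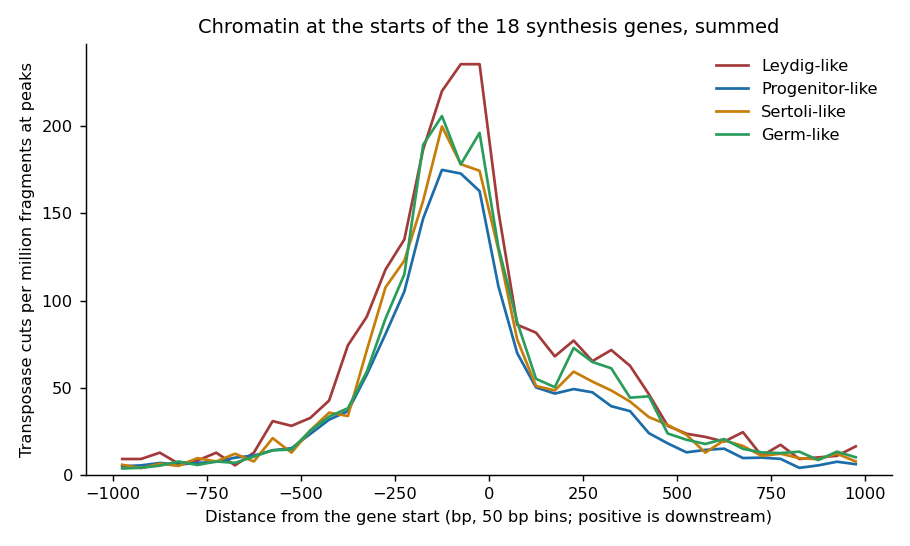
Transposase cuts per 1000000 fragments at peaks, in 50 bp bins by distance from the gene start, summed over the 18 synthesis genes, for 4 classes. Each curve has its summit just upstream of the start, at 236 cuts in Leydig-like, 206 in germ-like, 200 in Sertoli-like and 175 in progenitor-like nuclei. The outermost bins were also highest in Leydig-like nuclei, at 11.3 cuts against 7.74, 7.32 and 5.97 in the same order. Summit over outermost bins was lowest there, at 20.8 against 26.6, 27.3 and 29.3.

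Of 23 other genes of the pathway, not among the 32, 20 had at least 100 UMIs (*Acat3*, *Soat2* and *Nr1h3* did not), of which 4 were at least 2-fold higher in Leydig-like nuclei and 3 at least 2-fold lower, calls that 7.53% and 24% of all genes received. *Gramd1b*, which carries cholesterol from the plasma membrane to the endoplasmic reticulum, was at 6624 CPM in Leydig-like nuclei, 566 in Sertoli-like nuclei and 100.1 to 555 in the other named classes, a ratio of 22.99 (22.6 to 23.4). *Nceh1* and *Lipe*, hydrolases of cholesterol esters, had ratios of 4.41 and 4.14 and *Lrp8*, a lipoprotein receptor, 3.15. Lower were *Gramd1c*, the paralogue of *Gramd1b*, at 0.203 (0.125 to 0.312), *Stard5* at 0.476 and *Mylip*, which marks lipoprotein receptors for breakdown, at 0.487.

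All 8 genes of the fatty acid arm of the SREBP program were at least 2-fold higher in Leydig-like nuclei, against 7.53% of all genes. *Acss2*, which makes acetyl-CoA from acetate, had the largest ratio, 8.54, followed by *Acly* at 6.10, and *Fasn*, fatty acid synthase, and *Scd2* the smallest, at 2.14 each. *Me1*, which supplies NADPH, was higher in Sertoli-like than in Leydig-like nuclei, at 1727 (1702 to 1753) against 1554 (1528 to 1581) CPM.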

How the data were processed

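The libraries were sequenced and processed by the authors with Cell Ranger ARC 2.0.1 against mm10 (tool and build per the labels), and the deposited files hold raw counts: UMIs per gene, transposase cuts per peak and a list of fragments, before any filter for quality, doublets or free RNA. The 9833 barcodes were filtered to 7668 (over 500 genes, 250 to 25000 fragments at peaks and over 20% of fragments at peaks, under 10% mitochondrial, 10% ribosomal and 0.5% haemoglobin UMIs). The 470 highest Scrublet scores (0.8% per 1000 nuclei; scanpy 1.11.5) were removed, since the automatic threshold marked 1345 (17.5%). Nuclei were clustered on RNA and chromatin together in Seurat 5.3.0 at resolution 0.3 (2000 variable genes, 30 components), with the members and 233 peaks within 50 kb of their starts held out, and finer clusters used resolution 0.6. A cluster took the name of the cell type whose markers had the highest mean standardised level, with at least 3 of them detected. The name was withheld where another type had more markers among the 10 leading genes, or where nuclei were shallow and no own marker led. The unnamed cluster scored 1.41 for progenitor and 1.40 for contractile markers.

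For each class the UMIs of a gene were added up and scaled to 1000000 UMIs of that class (CPM). Levels have exact Poisson intervals, ratios exact conditional binomial intervals and shares exact Clopper-Pearson intervals, all at 95%. A count of 0 allows up to 3 counts. Promoter counts are fragments at peaks within 1 kb of the start positions deposited for a gene, per 1000000 fragments at peaks. Gene spans, strands and overlaps are from GENCODE models on GRCm38, whose starts can differ from the deposited ones. The computation was tested on simulated data with known fold changes. All members are named, with some genes of 2 further lists that passed 2-fold. The members and lists were chosen with earlier results of these data known. Some genes of the pathway are not reported here. TMM factors came from edgeR 4.0.16.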

Additional observations from a re-analysis of the deposited data

How the results depend on the processing

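No member changed direction under any planned setting among those with a 2-fold call, and with 1 library per assay no setting measures the spread between animals. The summed synthesis ratio of 7.15 was 6.13 with no doublet removal, 8.69 with the automatic Scrublet threshold, 6.54 with at least 1000 genes and 1000 fragments at peaks, 5.79 with clusters from chromatin alone, 6.93 with the members left in the clustering, 7.94 with TMM factors (a shift of 0.15 in log2 for every gene) and 16.3 with free RNA subtracted. In alternatives chosen after seeing the data it was 6.18 against progenitor-like nuclei alone and 6.83 with the other classes weighted equally. The free RNA estimate is unsure: for germ-like nuclei it was 37.2% from Leydig markers and 141% from Sertoli markers. Its profile was that of all deposited barcodes, which by itself raises the ratio of genes far higher in Leydig-like nuclei. The synthesis promoter ratio of 1.34 was 1.43 with the automatic threshold and 1.22 with clusters from chromatin alone. Thinned to 1000 UMIs, 52.3% of Leydig-like nuclei had a *Hmgcs1* UMI and 57.3% a *Scarb1* UMI. *Soat1* fell under 2-fold with no doublet removal (1.96), the stricter filter (1.79) and equal weights (1.99). With the mean level per nucleus *Ebp* was highest in immune-like nuclei. The 2-fold count of 25 members was otherwise 24 to 25, and the count of 11 members with more open promoters was 10 to 16, with 16 from matrix cuts. Cuts come in pairs from a fragment, so intervals from matrix cuts are too narrow. The causes were not tested. No paired analysis was possible because each assay had 1 library.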
